A study of Solanum lycopersicum with 6 samples.

Results

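The genes described here are those whose transcripts were abundant in the leaf-forming tomato apex and scarce in both kinds of leafless apex. RNA sequencing was done on shoot apices of tomato (Solanum lycopersicum) in 3 groups of 2 libraries each. The first group is the apex of the leafless (lfs) mutant, for which the labels name no allele. The second is the pin-shaped shoot tip of plants sprayed with TIBA at 1 mM (triiodobenzoic acid, which blocks polar auxin transport). The third is the wild-type (WT) apex. All seedlings were grown for 14 to 18 days in a greenhouse and fixed in acetone before dissection. Only the WT dissection kept the youngest leaf primordia with the meristem; samples of lfs and TIBA apices consisted of meristem without them.

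A gene belonged to the set when its normalized count was at least 50 in both WT libraries and the lower WT value was at least 4 times the highest of the 4 leafless values. Of 34722 gene identifiers in the deposited table, 74 met this rule, and 15991 met its WT minimum, so 0.463% of the genes abundant enough in WT were chosen. The members were thus chosen by the measured values of lfs against WT and of TIBA against WT. Levels relative to WT are therefore given as a description, without a test. In a dissected apex, fewer cells of a type and less RNA per cell cannot be told apart, and the leafless samples held no primordia.

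A leaf begins where auxin, carried from cell to cell by efflux proteins, accumulates on the flank of the meristem. TIBA blocks that transport, and the tip grows on as a bare pin; the lfs mutant also forms a leafless tip, and carries a mutation in the gene of an AP2-type transcription factor. In flowering plants, YABBY transcription factors are made in the young lateral organ and not in the central meristem, where they take part in setting the lower side of the organ and in the outgrowth of the blade. The meristem itself is marked by KNOX genes and by the WUSCHEL and CLAVATA3 pair, which hold the stem cell number steady.

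The libraries held between 17640302 and 26054787 gene-assigned reads. Repeats are numbered, but nothing in the labels ties them to separate sets of plants; a p-value here reflects only how far these libraries scatter, and that scatter may be technical. None of the 34722 identifiers matched the RefSeq gene table of assembly SLM_r2.1 (0 matches), and the deposited table holds no gene names. No single identifier is therefore given a name or a function here, and chromosomes are read from the identifiers. Normalized counts are not corrected for transcript length, so their order between genes is an order of reads.

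To see which known kinds of gene the set holds, 33 identifiers were listed under developmental headings from memory of published tomato work; the headings could not be checked against the files. Of the 27 listed identifiers that met the WT minimum, 9 were in the set, a share of 33.3% beside 0.463% of all such genes. The lists were drawn up with earlier results of these data known, so the share is a description. The lateral organ list, made up of YABBY identifiers, had 5 of its 6 in the set. The leaf shape list (polarity, blade and leaf complexity) had 2 of 8, the list of boundary and axillary bud regulators 1 of 5, and the flower and inflorescence list 1 of 8, of which 3 met the WT minimum. The meristem list had 0 of 4, and the list of the LEAFLESS gene and an auxin efflux carrier 0 of 2. The 2 identifiers of that last list had means of 805.7 and 3459 in lfs, 724.8 and 459.6 in TIBA pins, and 466.8 and 708.5 in WT, so the transcript listed for the mutated gene was not lower in the mutant. With no allele named and the link made from memory, this level does not check the labels of the lfs libraries.

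The 5 lateral organ identifiers in the set had mean normalized counts of 6.40 to 53.0 in lfs, 12.4 to 173.8 in TIBA pins and 217.3 to 7743 in WT. The sixth lateral organ identifier was outside the set, with means of 20.2 in lfs, 254.1 in TIBA pins and 188.7 in WT, and it was lower in lfs than in TIBA (log2 -3.60, SE 0.29, limma adjusted p = 0.00208). In contrast to the lateral organ list, the 4 meristem identifiers stood at means of 194.6 to 5591 in lfs, 171.7 to 5744 in TIBA pins and 141.7 to 4789 in WT. Their levels were 79.9% to 390.2% of WT in lfs and 70.5% to 353.8% of WT in TIBA pins. Listed meristem transcripts were thus present in all 6 libraries. Outside the set, the 6 leaf shape identifiers had 39.6% to 101.6% of WT in lfs and 36.3% to 116.6% in TIBA pins. The 4 boundary and bud identifiers outside the set had 20.4% to 83.3% of WT in lfs and 6.16% to 30.8% in TIBA pins. Among the 24 listed identifiers outside the set, 23 were tested between lfs and TIBA pins. Of these, 6 were higher in lfs, 3 were lower in lfs and 14 did not pass (limma, adjusted p under 0.05). Over all genes tested, 1.97% were called higher and 2.64% lower in lfs. The median log2 difference was 0.09 over the 23 and 0.02 over all genes tested. The flower and inflorescence list, with its 1 member of the set included, had 7 tested. There 3 were higher in lfs, 1 was lower and 3 did not pass. The median log2 difference of that list was 2.73, the value of its member, which did not pass. The 3 called higher, all outside the set, had means of 563.6 to 1344 in lfs, 0.598 to 77.8 in TIBA pins and 0 to 41.6 in WT. Their lfs libraries, replicate 1 first, had 306.9 and 820.4, 1351 and 1337, and 143.8 and 1137, so the first and last pairs were uneven. These 3 were far higher in lfs than in the other groups, and their part in the levels of the set was not tested. The 1 called lower, also outside the set, had 630.0 and 1390 in lfs and means of 3500 in TIBA pins and 3737 in WT.

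**Figure D1:**
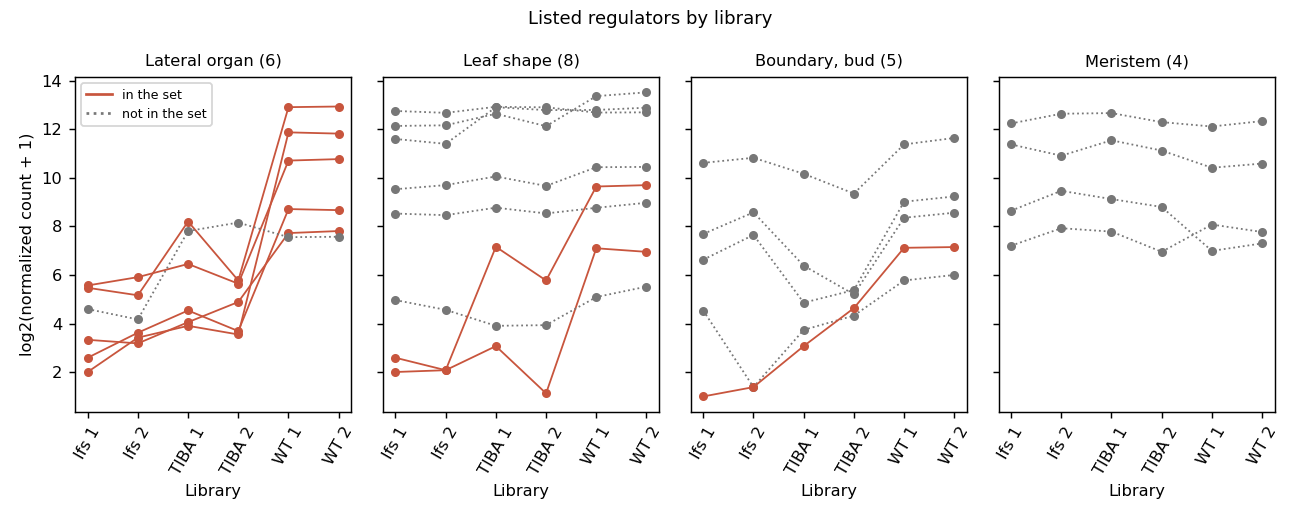
Normalized counts of listed identifiers on a log2(normalized count + 1) axis, by library; each line joins the 6 libraries for 1 identifier, solid red for those in the set and dotted grey for the others. The 5 lateral organ lines in the set lie far lower in all 4 leafless libraries than in WT, as the rule requires of every member. For the 4 meristem identifiers the group means are 70.5% of the WT mean or more in both leafless groups. Single libraries can lie lower, as at 123.3 in TIBA replicate 2 for an identifier with a WT mean of 243.4.

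The 9 listed members spanned a wide range of reads. Solyc01g091010.2 (chromosome 1) had normalized counts of 43.6 and 35.0 in lfs, 293.7 and 53.9 in TIBA pins, and 7671 and 7815 in WT. Solyc07g008180.2 (chromosome 7) had 46.6 and 59.4 in lfs, 86.9 and 49.1 in TIBA pins, and 1672 and 1744 in WT. For both genes the WT libraries stood close together and the lfs libraries were low, and the first TIBA library was the highest of the leafless ones. Solyc06g073920.2 (chromosome 6) had 5.06 and 11.4 in lfs, 22.3 and 12.0 in TIBA pins, and 419.2 and 406.4 in WT. Solyc11g071810.1 (chromosome 11) had 9.12 and 8.13 in lfs, 15.7 and 28.7 in TIBA pins, and 211.0 and 223.6 in WT. Solyc03g118770.2 (chromosome 3) had 5.06 and 3.25 in lfs, 7.45 and 1.20 in TIBA pins, and 136.5 and 123.0 in WT. The lfs and TIBA ranges overlapped for Solyc03g118770.2, whose 2 leafless means were nearly equal at 3.20% of WT in lfs and 3.33% of WT in TIBA pins. Solyc06g069240.1 (chromosome 6) had 1.01 and 1.63 in lfs, 7.45 and 23.9 in TIBA pins, and 138.2 and 141.2 in WT. Solyc02g077390.1 (chromosome 2), one of the members with the fewest WT reads, had 5.06 and 12.2 in lfs, 0.827 and 0 in TIBA pins, and 52.1 and 60.7 in WT. These last 2 genes were opposite in which leafless apex had the lower mean. The log2 difference of lfs minus TIBA was -2.66 (SE 0.60, limma adjusted p = 0.0546) for Solyc06g069240.1 and 2.73 (SE 0.63, limma adjusted p = 0.0586) for Solyc02g077390.1, so neither passed limma. The authors' deposited table gave adjusted p-values of 0.0122 for Solyc06g069240.1 and 0.131 for Solyc02g077390.1.

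Across all 74 genes, the mean normalized count had a median of 6.09 in lfs (lowest 0, highest 962.9), 12.8 in TIBA pins (0 to 253.5) and 185.9 in WT (53.4 to 7743). The set was not made of the most abundant WT transcripts: the median WT mean of all genes that met the WT minimum was 588.1. In WT, 57 members averaged at least 100, 17 at least 500 and 7 at least 1000. Together the members took 0.0113% and 0.0107% of the reads in the lfs libraries, 0.0148% and 0.00832% in the TIBA libraries, and 0.221% and 0.190% in the WT libraries. The lower WT value exceeded the highest leafless value by a median of 7.13 times, and by at least 16 times in 17 members. WT replicates differed by a median coefficient of variation of 7.73% over the members, beside 5.45% over all genes that met the WT minimum. In 8 members the first WT library was more than 1.5 times the second.

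**Figure D2:**
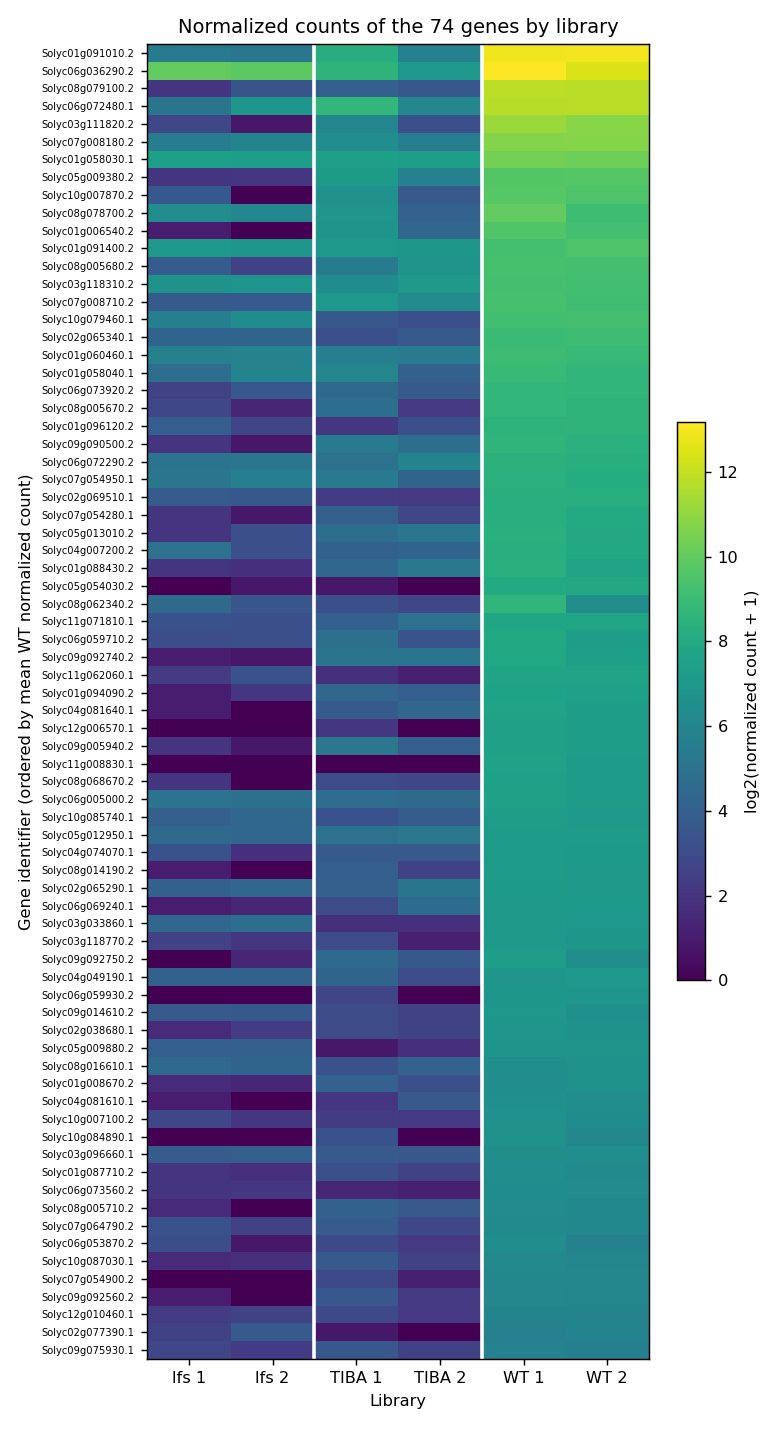
Heat map of the 74 genes (rows, ordered by mean WT normalized count) in the 6 libraries (columns); colour gives log2(normalized count + 1). The 2 WT columns are bright throughout and the 4 leafless columns are dark, a contrast that the rule requires. Solyc06g036290.2 and Solyc01g058030.1 keep the brightest lfs values.

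Solyc01g091010.2 and Solyc07g008180.2, given above, are among the 6 members with the most WT reads, and the other 4 differed in how much was left in the leafless apices. Solyc06g036290.2 (chromosome 6) had normalized counts of 1012 and 913.9 in lfs, 378.9 and 128.1 in TIBA pins, and 9187 and 5543 in WT. It kept the highest lfs level of the set, 13.1% of WT, against 3.44% of WT in TIBA pins. Its log2 difference of lfs minus TIBA was 2.12 (SE 0.47, limma adjusted p = 0.0524), so it was not called. The authors' deposited table gave it an adjusted p of 0.000762. Solyc08g079100.2 (chromosome 8) was close to lost, with 3.04 and 9.76 in lfs, 14.1 and 10.8 in TIBA pins, and 3740 and 3608 in WT. Solyc06g072480.1 (chromosome 6) had 33.4 and 117.9 in lfs, 419.4 and 67.0 in TIBA pins, and 3417 and 3616 in WT. Both leafless pairs of Solyc06g072480.1 were uneven, and the lfs and TIBA ranges overlapped. Solyc03g111820.2 (chromosome 3) had 6.08 and 0.813 in lfs, 64.5 and 8.38 in TIBA pins, and 2293 and 1835 in WT, and its first TIBA library was the highest leafless one.

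Depth of loss is given as the level left, in percent of the WT mean. For a gene without a read in a leafless group the value is an upper limit, computed from 3 reads in each of its libraries, and for 1 to 3 reads it is a ratio of pooled reads with an exact 95% interval; both cover counting error only. With the upper limits included, the median level left was 3.25% of WT in lfs (quartiles 1.04% and 9.95%) and 8.19% in TIBA pins (quartiles 3.49% and 12.0%). In lfs 46 members were at or under 5% of WT, and in TIBA pins 25. Of the 74 genes, 18 were at or under 5% in both, 28 in lfs alone, 7 in TIBA pins alone and 21 in neither. The rule capped every leafless value by the lower WT value, so these counts order the members within that range. Across members, the mean levels in lfs and in TIBA pins had a Spearman rho of 0.46 (74 genes), a description of genes that share libraries and a selection rule.

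The deepest losses differed in which leafless apex they concerned. Solyc05g054030.2 (chromosome 5) was near absent from both: it had 0 and 0.813 in lfs, 0.827 and 0 in TIBA pins, and 262.1 and 243.5 in WT. That was a single read in each leafless group, 0.178% of WT in lfs (exact 95% interval 0.00451% to 0.999%) and 0.194% in TIBA pins (0.00489% to 1.08%). Solyc11g008830.1 (chromosome 11) was the member without a read in any leafless library, against 193.9 and 155.1 in WT, and was at least 63.7-fold lower in lfs and at least 57.5-fold lower in TIBA pins. The other 4 members without a read in lfs were Solyc06g059930.2, Solyc07g054900.2, Solyc10g084890.1 and Solyc12g006570.1, picked out after their values were seen. In TIBA pins these 4 had 5.79, 6.62, 9.10 and 3.31 in the first library, in that order, and 0, 1.20, 0 and 0 in the second.

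Solyc01g006540.2 (chromosome 1) showed the deepest loss in lfs alone, with 1.01 and 0 in lfs, 111.7 and 19.2 in TIBA pins, and 764.0 and 597.9 in WT. Its single lfs read was 0.0664% of WT (exact 95% interval 0.00168% to 0.370%), against 9.61% of WT in TIBA pins. Solyc03g111820.2 and Solyc08g079100.2, described above, were at 0.167% and 0.174% of WT in lfs and at 1.77% and 0.338% of WT in TIBA pins. Toward the TIBA side, Solyc11g062060.1 (chromosome 11) had 4.05 and 8.94 in lfs, 2.48 and 1.20 in TIBA pins, and 202.0 and 201.9 in WT. It was at 3.22% of WT in lfs and 0.911% in TIBA pins. Solyc02g077390.1 had a single read over the TIBA libraries, 0.867% of WT (exact 95% interval 0.0218% to 4.92%), against 15.3% of WT in lfs.

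**Figure D3:**
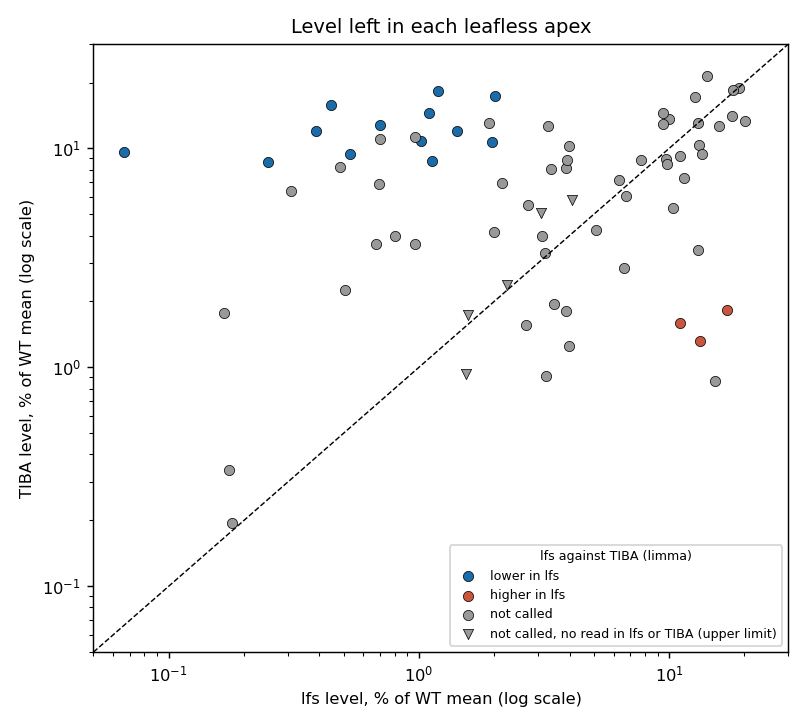
Level left in lfs (horizontal) and in TIBA pins (vertical) for the 74 genes, each in percent of the WT mean on log axes; colours give the limma call of lfs against TIBA, triangles are upper limits for genes without a read, and the dashed line marks equal levels. More points lie above the line than below it, and the 13 genes called lower in lfs gather at upper left, at 8.67% to 18.3% of WT in TIBA pins.

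The contrast whose direction the rule did not fix is lfs against TIBA, so it was tested, in a limma fit over all 19807 genes with a normalized count of at least 10 in at least 2 libraries. The fit shared 1 spread per gene among all 3 groups, so each SE and p-value also rests on the scatter of the WT libraries. In the members those WT values were at least 4 times the leafless ones by rule. All 74 members entered the fit because the rule requires that level in WT. Of them 13 were lower in lfs, 3 were higher in lfs and 58 did not pass (limma, Benjamini-Hochberg adjusted p under 0.05). Over all genes tested 4.60% were called, 2.64% lower and 1.97% higher in lfs; among the members the share was 21.6%. The median log2 difference was -0.71 over the members and 0.02 over all genes tested. Only 45 of the 74 reached the filter through the lfs and TIBA libraries themselves, and over these, fitted without WT, the median was -0.32 and 26 differences were negative. Members with few leafless reads thus entered through WT alone, and neither the median nor the shares show that the set as a whole was lower in lfs. Both lfs libraries lay below both TIBA libraries in 33 members and above them in 16, while 25 overlapped; over all genes tested the shares without overlap were 23.6% below and 25.3% above. The 74 members counted there include those that entered through WT alone. These overlap counts therefore do not show that the set as a whole was lower in lfs. For the same contrast the authors' deposited table gave 17 of the 74 an adjusted p under 0.05, beside 5.65% of all genes with a value, and held 15 of the 16 limma calls. With TIBA replicate 1 left out the median log2 difference over the members was -0.18, and with TIBA replicate 2 left out it was -0.94. The number called depended on the libraries, over the members and over all genes alike. Leaving out lfs replicate 1 left 8 members called (10.8%), beside 2.17% of all genes tested. Leaving out lfs replicate 2 left 1 (1.35%), beside 0.526% of all genes. Without TIBA replicate 1 it was 21 (28.4%), beside 13.9% of all genes, and without TIBA replicate 2 it was 13 (17.6%), beside 3.18%. Leaving out either WT replicate left 6 of 59 still tested (10.2%), beside 1.84% and 1.82% of all genes. With the 4 lfs and TIBA libraries alone it was 3 of 45 (6.67%), beside 1.83%.

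Among the members lower in lfs, Solyc05g009380.2 (chromosome 5) had 3.04 and 3.25 in lfs, 142.3 and 53.9 in TIBA pins, and 798.1 and 830.1 in WT. Its lfs level was 0.386% of WT and its TIBA level 12.0% of WT, a log2 difference of -4.42 (SE 0.46, limma adjusted p = 0.00593). Solyc09g092740.2 (chromosome 9) had 1.01 and 0.813 in lfs, 32.3 and 32.3 in TIBA pins, and 237.9 and 169.0 in WT, and its log2 difference was -4.12 (SE 0.41, limma adjusted p = 0.00513). The TIBA libraries were level for Solyc09g092740.2 and uneven for Solyc05g009380.2, and lfs and TIBA did not overlap for either. Solyc01g006540.2, described above, had the largest difference, a log2 value of -5.07 (SE 0.79, limma adjusted p = 0.0187); without TIBA replicate 1 it was -3.83. Solyc09g090500.2 (chromosome 9) had 3.04 and 0.813 in lfs, 42.2 and 26.3 in TIBA pins, and 391.4 and 338.0 in WT, with a log2 difference of -3.67 (SE 0.50, limma adjusted p = 0.0121). Without lfs replicate 2 only Solyc09g092740.2 was still called among all 16, and without lfs replicate 1 Solyc01g006540.2 also lost its call (limma adjusted p = 0.0596). The other 9 members called lower in lfs had log2 differences between -3.53 and -2.37.

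All 3 members called higher in lfs were at 1.32% to 1.84% of WT in TIBA pins, and for each of them the lfs libraries lay above the TIBA libraries. Solyc03g033860.1 (chromosome 3) had 19.2 and 26.0 in lfs, 2.48 and 2.39 in TIBA pins, and 134.7 and 130.8 in WT, with a log2 difference of 2.77 (SE 0.41, limma adjusted p = 0.0159). Solyc05g009880.2 (chromosome 5) had 14.2 and 15.4 in lfs, 0.827 and 2.39 in TIBA pins, and 110.4 and 111.8 in WT, with a log2 difference of 2.67 (SE 0.49, limma adjusted p = 0.0305). In TIBA pins that was 3 reads in all, 1.32% of WT (exact 95% interval 0.271% to 3.90%), against 13.3% of WT in lfs. Solyc10g079460.1 (chromosome 10) had 49.6 and 82.9 in lfs, 10.8 and 8.38 in TIBA pins, and 581.7 and 615.2 in WT, with a log2 difference of 2.63 (SE 0.35, limma adjusted p = 0.0105). Without lfs replicate 2 none of the 3 was called. Solyc03g033860.1 and Solyc05g009880.2 also lost the call without either WT replicate, and Solyc05g009880.2 without lfs replicate 1.

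**Figure D4:**
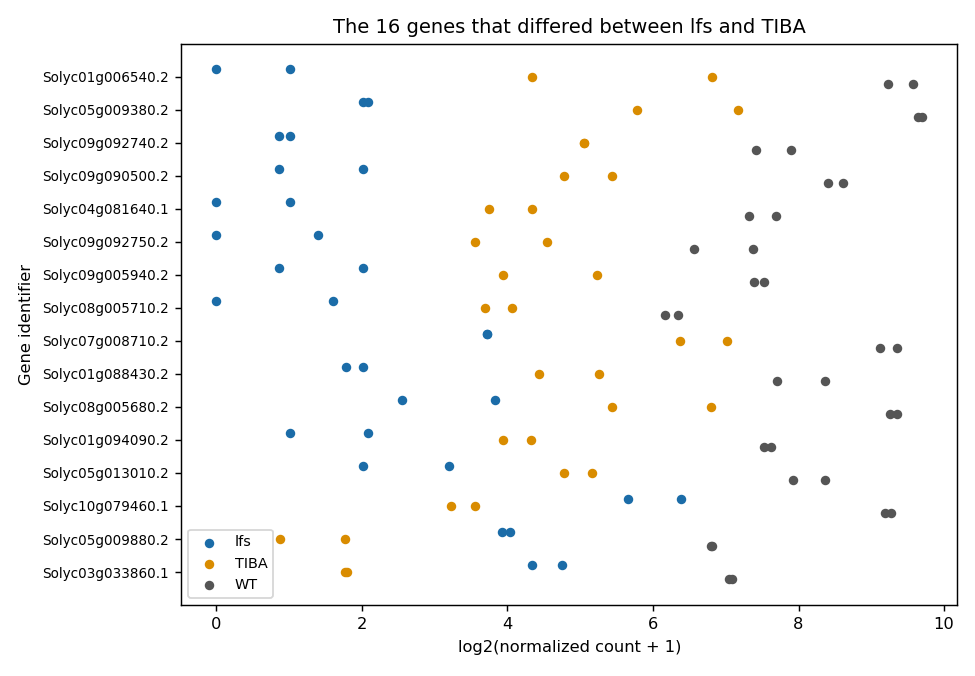
The 16 genes called between lfs and TIBA, 1 row each, with both libraries of lfs (blue), TIBA (orange) and WT (grey) on a log2(normalized count + 1) axis. In the upper 13 rows the lfs points lie left of the TIBA points, and in the lower 3 rows right of them. The WT points lie right of both in every row, as the rule requires.

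The rule capped each leafless value but did not use the direction of the difference between replicates. Over the members that difference was uneven in TIBA pins. TIBA replicate 1 was above TIBA replicate 2 in 55 of the 74 members, with a median log2 difference of 0.60, and by at least 2-fold (on log2(value + 1)) in 25 members against 5 in the other direction. These sizes depend on the pseudocount: with 5 in place of 1 the median was 0.30, and 15 members against 3 differed by at least 2-fold. Over all genes that met the WT minimum, 49.1% were higher in TIBA replicate 1 and the median was -0.01. At least 2-fold differences were seen in 4.47% there and 2.23% in the other direction. The members' mean TIBA count had a median of 12.8, and the part of low counts in this difference was not tested. In lfs, replicate 1 was higher in 39 members, with a median of 0.08, and by at least 2-fold in 19 members against 8 in the other direction. With a pseudocount of 5 the lfs median was 0.06 and the counts were 3 and 2. Over all genes that met the WT minimum, 46.3% were higher in lfs replicate 1, 1.96% by at least 2-fold there and 0.819% in the other direction. In WT, replicate 1 was higher in 56 members, by a median log2 difference of 0.13, beside 48.2% of all such genes and a median of -0.01. Of the 73 members with a leafless read, the highest leafless value was in TIBA replicate 1 for 38, TIBA replicate 2 for 12, lfs replicate 1 for 13 and lfs replicate 2 for 10. Over all genes that met the WT minimum, TIBA replicate 1 held the highest value for 22.3%.

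The difference between TIBA replicates was large in some members and reversed in others. Solyc10g007870.2 (chromosome 10) had 98.4 and 12.0 in the TIBA libraries, against 861.8 and 741.8 in WT, a ratio of 8.23 between the TIBA replicates. That ratio was 7.70 for Solyc03g111820.2, 6.26 for Solyc06g072480.1 and 5.45 for Solyc01g091010.2. Solyc06g069240.1 and Solyc08g005680.2 went the other way, with TIBA ratios of 0.311 and 0.383. Solyc10g007870.2 and this set of examples were picked out after their values were seen. The TIBA libraries also differed in depth, 25774076 and 17640302 reads, and the part of depth or of the dissection in this difference was not tested.

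**Figure D5:**
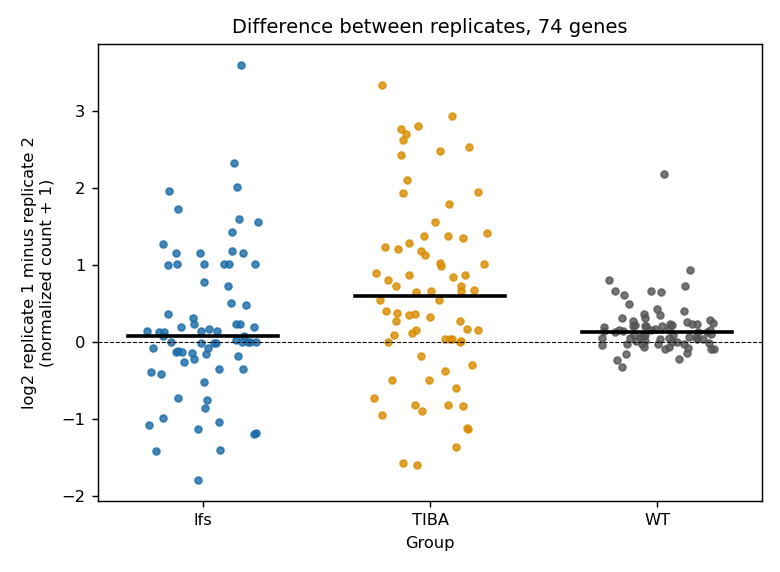
Difference between replicate 1 and replicate 2 on the log2(normalized count + 1) scale for the 74 genes (points) in lfs, TIBA and WT, with the median as a bar and small sideways scatter for legibility. The TIBA median lies at 0.60, above the lfs median of 0.08 and the WT median of 0.13; with a pseudocount of 5 the TIBA median is 0.30.

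By the identifiers, the members lay on all 12 numbered chromosomes. Chromosome 1 held 11 members, chromosome 6 held 10, chromosome 8 held 9 and chromosome 9 held 7, whereas chromosome 12 held 2 and chromosome 11 held 3. Set against the genes that met the WT minimum, the share in the set was highest on chromosome 8 (0.777%) and chromosome 6 (0.704%) and lowest on chromosome 12 (0.200%), around 0.463% overall. These are counts of 2 to 11 genes a chromosome, and no test was made.

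Some members were neighbours in the order of identifiers. In the table, 6 members (8.11%) stood directly beside another member, in 3 pairs, whereas 68 of the other 15917 genes that met the WT minimum (0.427%) stood beside a member. Within 5 identifiers the counts were 15 members (20.3%) and 313 other genes (1.97%). Neighbours may share sequence and so share reads, which these files cannot show. The pair Solyc09g092740.2 and Solyc09g092750.2 behaved alike: the second had 0 and 1.63 in lfs, 22.3 and 10.8 in TIBA pins, and 165.2 and 93.6 in WT, and both were called lower in lfs. Under the alternative settings described below, Solyc09g092750.2 lost the call in 11 and Solyc09g092740.2 in 0. The pair Solyc01g058030.1 and Solyc01g058040.1 kept more in both leafless apices. Solyc01g058030.1 had 173.2 and 164.2 in lfs, 172.1 and 166.4 in TIBA pins, and 1363 and 1223 in WT, which is 13.1% of WT in both leafless groups. Solyc01g058040.1 had 25.3 and 59.4 in lfs, 62.9 and 15.6 in TIBA pins, and 467.7 and 404.7 in WT.

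The longest run held 3 members within 5 identifiers on chromosome 8. Solyc08g005670.2 had 6.08 and 1.63 in lfs, 25.6 and 3.59 in TIBA pins, and 421.9 and 376.1 in WT. Its neighbour Solyc08g005680.2 had 13.2 and 4.88 in lfs, 42.2 and 110.1 in TIBA pins, and 651.7 and 613.5 in WT. Solyc08g005710.2 had 2.03 and 0 in lfs, 15.7 and 12.0 in TIBA pins, and 79.9 and 71.1 in WT. All 3 were low in lfs, but the TIBA libraries ranked differently: the first was the higher for Solyc08g005670.2 and Solyc08g005710.2, and the second for Solyc08g005680.2. Solyc08g005680.2 (log2 -2.92, SE 0.56, limma adjusted p = 0.0352) and Solyc08g005710.2 (log2 -3.08, SE 0.63, limma adjusted p = 0.0420) were called lower in lfs, and Solyc08g005670.2 was not called. The authors' deposited table gave adjusted p-values of 0.110 for Solyc08g005680.2 and 0.0206 for Solyc08g005710.2. Under the alternative settings described below, Solyc08g005680.2 lost the call in 7 and kept it in 9. Solyc08g005710.2 lost it in 10 and kept it in 6. The identifiers between them, Solyc08g005690.1 and Solyc08g005700.1, did not share the pattern, with means of 5.98 and 7.20 in lfs, 13.8 and 14.5 in TIBA pins, and 4.01 and 0.433 in WT.

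Outside the set, 1 neighbour of members came close to the rule. Between the chromosome 4 members Solyc04g081610.1 and Solyc04g081640.1, Solyc04g081630.1 had 2.03 and 1.63 in lfs, 18.2 and 71.8 in TIBA pins, and 289.1 and 266.0 in WT. It was far lower in lfs than in WT and was left out through its second TIBA library. It was picked out after its values were seen.

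The fold of 4 separated genes with similar values. Just inside it, Solyc08g062340.2 had 22.3 and 10.6 in lfs, 8.27 and 5.98 in TIBA pins, and 410.3 and 89.3 in WT, the most uneven WT pair of the set (ratio 4.60). Solyc03g118310.2 had 104.3 and 113.8 in lfs, 84.4 and 140.0 in TIBA pins, and 632.9 and 577.1 in WT, and Solyc05g012950.1 had 22.3 and 20.3 in lfs, 29.0 and 35.9 in TIBA pins, and 153.5 and 148.2 in WT. Just outside, Solyc04g081720.1 had 0 and 0 in lfs, 4.96 and 16.8 in TIBA pins, and 66.4 and 65.9 in WT. Solyc07g043660.2 had 0 and 0 in lfs, 6.62 and 22.7 in TIBA pins, and 106.8 and 89.3 in WT, and Solyc04g049920.2 had 63.8 and 56.9 in lfs, 27.3 and 12.0 in TIBA pins, and 244.2 and 248.7 in WT. The first 2 genes outside had no read in lfs and were excluded by the second TIBA library. The naming rule covers 26 of the 74 members. The other 48 had means of 0 to 168.7 in lfs (median 5.32), 0 to 169.2 in TIBA pins (median 11.2) and 53.4 to 1293 in WT (median 159.9), and at most 20.2% of WT was left in lfs and 18.9% in TIBA pins.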

How the data were processed

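The deposited table holds normalized counts for 34722 genes in 6 libraries, a signal the authors made with DESeq2 by dividing gene counts by a size factor per library, per the file headers. It also holds the authors' log2 fold changes and p-values for 3 comparisons, per the file headers. The submitters' processing notes name TopHat2 (2.0.10), HTSeq (0.6.1p1) and DESeq2 (1.6.3); the genome build is not given in the sources used here. Dividing each library's values by its smallest step gave whole numbers (tolerance 0.001) for all 208332 values, and these reads were used where stated.

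Membership followed the stated rule. lfs and TIBA were compared on log2(normalized count + 1) with limma (3.58.1, under R 4.3.3), fitted on 19807 genes and all 6 libraries, with trend and robust moderation; a log2 difference on this scale understates changes at few reads. The pipeline was tested on simulated data, with changes planted only in genes averaging at least 50. Low leafless counts beside high WT counts, as in the members, were not simulated. edgeR (4.0.16) and DESeq2 (1.42.0) on recovered reads were alternatives, and edgeR with TMM called 825 genes. Shares with exact intervals use 95% confidence. Named genes were those with the most WT reads, the deepest loss in each leafless group, the largest called differences between lfs and TIBA, those at the fold threshold, the longest run of neighbours and listed identifiers. Members and lists were chosen with earlier results of these data known.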

Additional observations from a re-analysis of the deposited data

How the results depend on the processing

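The set held 101 genes with a fold of 3, 32 with a fold of 8, 92 and 54 with WT minimums of 25 and 100, 77 with TMM scaling of recovered reads, and 83 to 91 without a single library; all of these but the fold of 8 and the WT minimum of 100 contained all 74. Of the 16 members called between lfs and TIBA (limma), the count was 3 with only the 4 lfs and TIBA libraries, 3 at an adjusted p under 0.01, and 1 to 21 without a single library. In the first of these, and without a WT library, fewer members met the filter on low values. The count was 14 (18.9% of members) under edgeR with either scaling, beside 4.17% and 4.14% of all genes tested. Under DESeq2 it was 21 (28.4%), with all 16 among them, beside 10.1% of all genes. With pseudocounts of 0.5 and 5 it was 15 and 16, of which 15 each were among the 16, beside 4.37% and 5.13% of all genes. Without the filter it was 16, beside 3.95%. With a replicate block it was 11 (14.9%), of which 10 were among the 16, beside 2.39% of all genes tested. Replicate differences correlated at -0.14 between lfs and TIBA, 0.02 between lfs and WT and -0.05 between TIBA and WT (19807 genes). Libraries of the same number thus showed no pairing, and these values do not settle whether libraries of unlike number belong together. A crossed block, chosen after seeing the data, gave 18 members called (24.3%), beside 6.06% of all genes tested. For the 16 called genes and Solyc08g005670.2, which was not called, alternatives changed no direction. Among the 16, 76 of 256 results (1 gene under 1 alternative each) lost the call, and only Solyc09g092740.2 among the 16 kept it in all. Members beside a member numbered 15 when neighbours within 5 identifiers counted, against 6. With 33 members at 10 reads or fewer over both lfs libraries and 13 over both TIBA libraries, depth limits how finely losses can be ranked.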
